A study of Mus musculus with 15 samples.

Results

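Collagen genes were followed in ear RNA of mice with and without Socs3 in keratinocytes. The 38 genes described here are the collagen chains among the 21110 gene symbols measured, taken as every symbol of the form Col, number, a, number (41 in all) without the cartilage collagens Col2a1, Col9a1 and Col11a2. By the assemblies their proteins form, 9 are fibrillar chains, 10 are basement membrane chains (6 of type IV and 4 of the basement membrane zone) and 19 belong to other classes. Chains that are also made in cartilage (Col9a2, Col9a3, Col10a1 and Col11a1) are still among the 38. Socs3 conditional knockout (Socs3 cKO) mice lack Socs3, a brake on cytokine signaling through STAT3, in cells that express keratin 5, while other cells of the ear, such as dermal fibroblasts, keep the gene. All animals had the C57BL/6 background, and the ear is labelled as the tissue while keratinocytes are named as the source. The groups were wild type at 2 weeks after birth (4 mice), Socs3 cKO at 2 weeks (4 mice), wild type at 10 weeks (3 mice) and Socs3 cKO at 10 weeks (4 mice), with 1 library each.

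A collagen molecule is a triple helix of 3 chains, in which glycine has to recur once per 3 residues because no larger side chain fits in its core. Fibrillar collagens pack into the fibrils that carry load in dermis, type IV collagen forms the sheet-like network of basement membranes under the epidermis and around vessels, and anchoring collagens such as type VII tie the epidermis to the dermis. FACIT collagens, whose helices are interrupted, decorate fibrils. In skin most collagen is made by dermal fibroblasts, while keratinocytes contribute chains of the junction such as Col17a1 and Col7a1.

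The repeat that gives the classes their shape can be read from the genome (mm9). Of the coding exons of the 9 fibrillar genes, 47.3% were 54 bases long, against 4.55% in the basement membrane class and 17.6% in the others. The longest unbroken run of glycine codons spaced 3 codons apart held 216 to 344 glycines in the fibrillar chains, 30 to 75 in the basement membrane class and 28 to 113 in the others. To show this, 1 exon of 54 bases is printed for each of 3 fibrillar chains that fell in Socs3 cKO at 2 weeks, and below them an exon of the type IV chain Col4a1 in which the repeat is broken. Glycine codons are in capitals.
Col1a1 coding exon 8, chr11:94801218-94801271, plus strand: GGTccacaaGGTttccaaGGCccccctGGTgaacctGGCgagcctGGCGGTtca
Col3a1 coding exon 6, chr1:45382205-45382258, plus strand: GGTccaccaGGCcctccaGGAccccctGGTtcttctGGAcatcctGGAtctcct
Col5a1 coding exon 15, chr2:27820771-27820824, plus strand: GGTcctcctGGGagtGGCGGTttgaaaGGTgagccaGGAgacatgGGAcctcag
Col4a1 coding exon 21, chr8:11235095-11235259, minus strand: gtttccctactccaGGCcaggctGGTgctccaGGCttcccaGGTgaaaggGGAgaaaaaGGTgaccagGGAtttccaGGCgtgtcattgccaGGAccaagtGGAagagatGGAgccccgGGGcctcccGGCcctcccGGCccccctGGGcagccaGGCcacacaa

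Promoters are shown for 2 chains that were down-regulated at 2 weeks (Col1a2 and Col3a1) and for the hexagonal network chains with higher levels in Socs3 cKO (Col8a1 and Col10a1). Each line is the 250 bases before the start of transcription in RefSeq (GRCm38.p6), read 5′ to 3′ on the strand of the gene. Capitals mark matches, on either strand, to the CCAAT box (letters CCAAT), the TATA box (letters TATAAA), the GC box (letters GGGCGG), the AP-1 motif (letters TGANTCA) or the STAT motif (letters TTCNNNGAA), and matches to different motifs may overlap.
Col1a2, chr6:4505368-4505617, plus strand: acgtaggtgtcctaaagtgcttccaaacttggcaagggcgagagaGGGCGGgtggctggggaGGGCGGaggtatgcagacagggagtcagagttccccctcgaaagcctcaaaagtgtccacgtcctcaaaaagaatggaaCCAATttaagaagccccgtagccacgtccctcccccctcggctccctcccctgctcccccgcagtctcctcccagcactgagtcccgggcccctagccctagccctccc
Col3a1, chr1:45311288-45311537, plus strand: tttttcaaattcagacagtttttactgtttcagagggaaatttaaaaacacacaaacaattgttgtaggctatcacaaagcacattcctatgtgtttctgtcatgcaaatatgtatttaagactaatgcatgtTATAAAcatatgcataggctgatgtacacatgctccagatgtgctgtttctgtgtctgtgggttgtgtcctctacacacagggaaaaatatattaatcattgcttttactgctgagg
Col8a1, chr16:57754738-57754987, minus strand: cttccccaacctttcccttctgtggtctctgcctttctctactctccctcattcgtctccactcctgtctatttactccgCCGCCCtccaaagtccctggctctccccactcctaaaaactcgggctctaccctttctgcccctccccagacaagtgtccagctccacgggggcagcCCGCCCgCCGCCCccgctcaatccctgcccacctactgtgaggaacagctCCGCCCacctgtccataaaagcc
Col10a1, chr10:34389731-34389980, plus strand: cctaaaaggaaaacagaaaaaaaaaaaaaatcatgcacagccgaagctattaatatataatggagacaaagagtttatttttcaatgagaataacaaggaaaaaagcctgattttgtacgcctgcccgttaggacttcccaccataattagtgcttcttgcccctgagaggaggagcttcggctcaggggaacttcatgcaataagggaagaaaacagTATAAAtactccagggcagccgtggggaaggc
Windows were found for 31 of the 38 genes (33 windows). GGGCGG stood in 19 of them (57.6%) against 32.7% of all 32851 promoter windows, and CCAAT in 11 (33.3%) against 33.8%. TATAAA stood in 4 (12.1%) against 12.4%. The AP-1 motif stood in 1 window, that of Col6a1 (3.03%), against 6.75% of all, and the STAT motif in 1, that of Col28a1 (3.03%), against 7.02%. These matches describe the letters of the windows only. The starts of Col4a1 and Col4a2, which lie head to head on chromosome 8, were 21 bases apart.

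Each library was estimated at 11700000 to 16500000 mapped reads from the value of 1 read, so Col19a1, with an FPKM of at most 0.164, rested on very few reads. The level of Socs3 did not separate the genotypes at 2 weeks (9.71 to 10.3 FPKM in wild type and 1.25 to 12.6 in Socs3 cKO, log2(FC) = -1.06 ± 0.63 SE, adjusted p = 0.18) and lay higher in each Socs3 cKO mouse at 10 weeks (29.8 to 47.7 against 2.02 to 4.81, log2(FC) = 3.54 ± 0.29 SE, adjusted p = 7.2e-05). FPKM here sum the whole gene in whole ear, and which part is deleted is not given in the sources used here, so Socs3 was no check of the labels. Socs3 cKO replicate 1 at 2 weeks stood apart, with the lowest value of its group for 37 of the 38 collagen genes. Wild type replicate 2 at 10 weeks was the highest of its group for 32 of 38. The 3 wild type libraries at 10 weeks stood apart over all genes, with 1414 to 3176 of them at 0 FPKM. That count was 4044 to 4183 in young wild type, 4134 to 4423 in young Socs3 cKO and 4092 to 4233 in old Socs3 cKO. These libraries enter the comparison at 10 weeks, age in wild type and the interaction, and the part of this difference there was not tested. The sources used here name no batch, so no values within batches are given. The sample titles carry serial codes that fall in a separate range for each group, and their meaning is not stated. Anything that goes with these ranges cannot be told apart from genotype or age. In whole tissue, fewer cells of a type and less RNA per cell cannot be told apart.

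The 38 collagen genes made up 3.24 to 3.59% of the FPKM sum of each wild type ear at 2 weeks. For Socs3 cKO of that age the share lay between 0.454 and 1.5%. Older wild type ears gave 0.384 to 1.15%, and older Socs3 cKO ears 0.97 to 1.2%. The young wild type ears thus lay above all others, and the remaining groups overlapped. Col1a1, Col1a2 and Col3a1, the chains of the main dermal fibrils, gave 64.2 to 81.9% of the collagen sum in every library. Per length, Col3a1 had the highest mean level in wild type at 2 weeks (4673 FPKM), followed by Col1a1 (3881) and Col1a2 (3776). In the other groups Col1a1 came after both: its mean was 502 FPKM in Socs3 cKO at 2 weeks, where Col3a1 had 2104 and Col1a2 had 1194. At 10 weeks wild type ears had 1337.3 FPKM of Col1a2, 1032 of Col3a1 and 456 of Col1a1. Col6a1 came next in every group, with means from 117 to 564 FPKM.

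**Figure D1:**
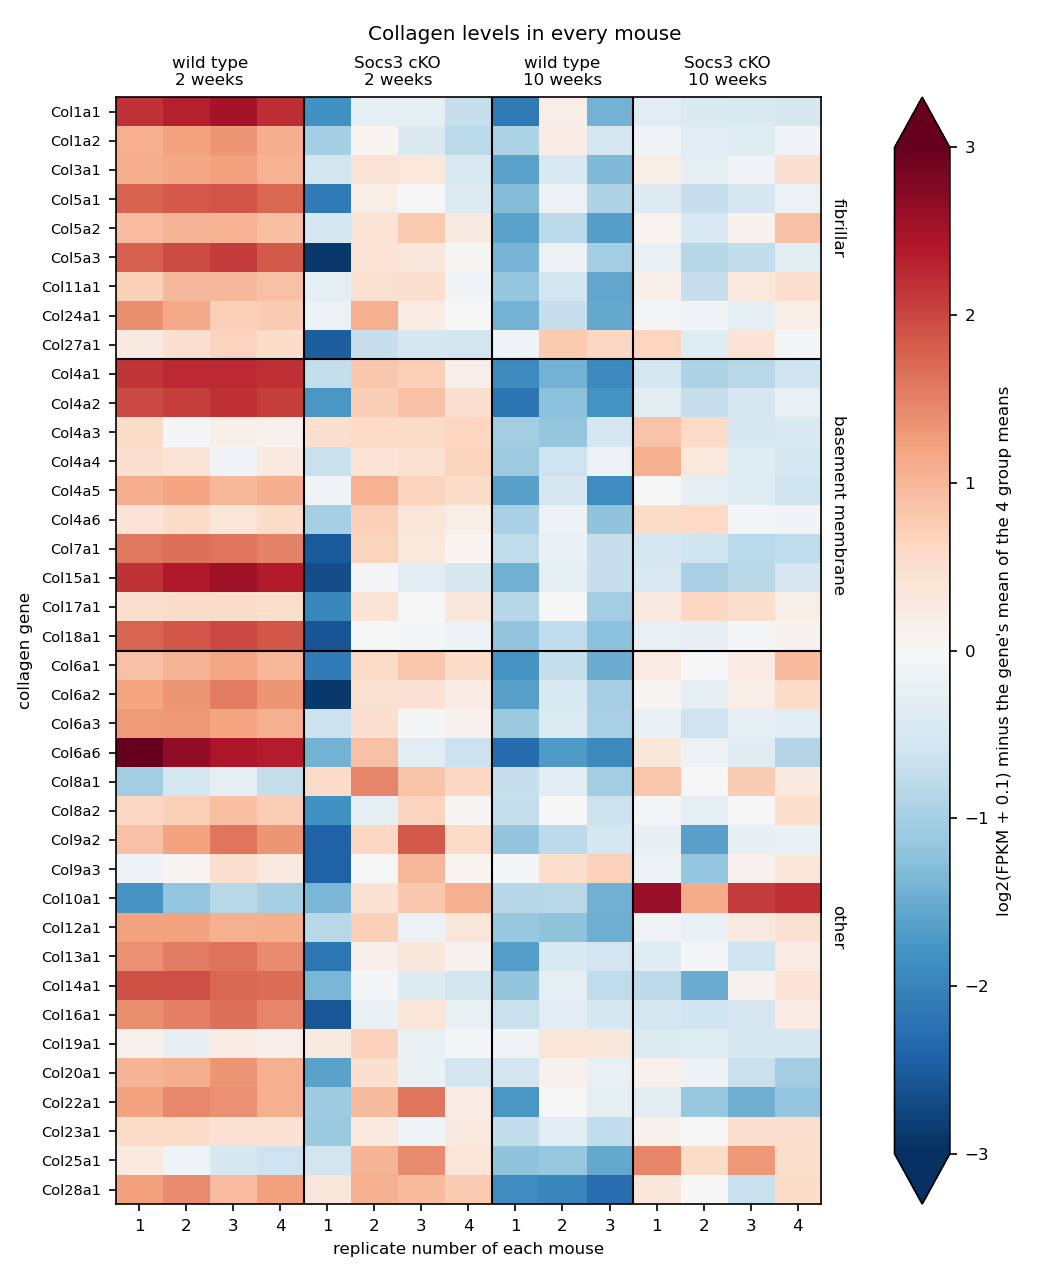
Level of the 38 collagen genes in each of the 15 mice, as log2(FPKM + 0.1) minus the mean of the gene's 4 group means. Columns are mice numbered by replicate within each group and rows are genes ordered by class; the wild type mice at 2 weeks are the highest group for most genes, Socs3 cKO replicate 1 at 2 weeks is the lowest of its group for 37 genes, and Col8a1 and Col10a1 are higher in both Socs3 cKO groups than in the wild type of the same age, apart from Col10a1 in Socs3 cKO replicate 1 at 2 weeks.

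To ask whether loss of Socs3 in keratinocytes moved collagen expression, Socs3 cKO was compared with wild type within each age. At 2 weeks 10 collagen genes were down-regulated and 1 was up-regulated among the 34 with enough expression to be tested. The down-regulated genes were the fibril chains Col1a1, Col1a2, Col3a1 and Col5a1, the basement membrane chains Col4a1, Col15a1 and Col18a1, the type VI chains Col6a3 and Col6a6, and the FACIT chain Col14a1. The gene that rose was Col8a1, a short-chain collagen of the hexagonal network. DEGs had an adjusted p below 0.01 in limma and |log2(FC)| of at least 1 on the log2(FPKM + 0.1) scale; 7.19% of all 13524 genes tested were lower by this rule and 7.24% were higher. With an adjusted p below 0.05 alone, 20 of the 34 were lower and 2 higher, against 47.9% of all genes called in either direction. Every Socs3 cKO mouse was below every wild type mouse for 24 of the 34 (33.2% of all genes) and above for 1 (22.9%). The 4 not tested were Col4a3, Col4a4, Col19a1 and Col25a1, all at low levels.

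Most genes tested in each class had lower values at 2 weeks, the exceptions being Col8a1 and Col10a1 of the hexagonal network. Over all 38 genes 33 had lower values, and Col4a3, Col19a1 and Col25a1, all too low to be tested, had higher ones. The median log2(FC) was -1.55 in the 9 fibrillar chains, of which 4 were DEGs and all 9 had lower values. It was -1.95 in the 8 basement membrane chains tested (3 DEGs) and -1.10 in the 17 others tested (3 lower, 1 higher). Over all 38 members, low ones included, the median was -1.12, with -1.39 for the 10 basement membrane chains and -0.47 for the 6 type IV chains. The median of all genes tested was -0.21. These class values are descriptions, and the difference between classes was not tested.

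At 10 weeks the direction turned: 8 of the 32 genes tested were up-regulated and none was down-regulated in limma. The 8 were the type IV chains Col4a1 and Col4a2, the fibril chain Col5a2, the type VI chain Col6a1, the hexagonal network chains Col8a1 and Col10a1, the FACIT chain Col12a1, and Col28a1. Of all 13105 genes tested, 12.5% were higher and 2.43% lower. With an adjusted p below 0.05 alone, 16 were higher and 0 lower, against 37.6% of all genes called. In 14 of the 32 the genotypes were fully separated with Socs3 cKO higher (31.2% of all genes), and in 0 with Socs3 cKO lower (11.1%). The median log2(FC) was 0.53 in the 8 fibrillar chains tested (1 DEG), 1.03 in the 8 basement membrane chains (2 DEGs) and 0.61 in the 16 others (5 DEGs), beside 0.31 in all genes tested. The smallest adjusted p among the 5 genes with lower values was 0.188, for Col9a3. With median-of-ratios scaling the median of all genes was -0.003 at 2 weeks and 0.05 at 10 weeks, and 10 collagen genes were called at 2 weeks and 5 at 10 weeks. With this scaling 26.5% of the collagen genes were lower at 2 weeks, against 8.04% of all genes. At 10 weeks 16.1% were higher, against 8.15% of all genes.

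**Figure D2:**
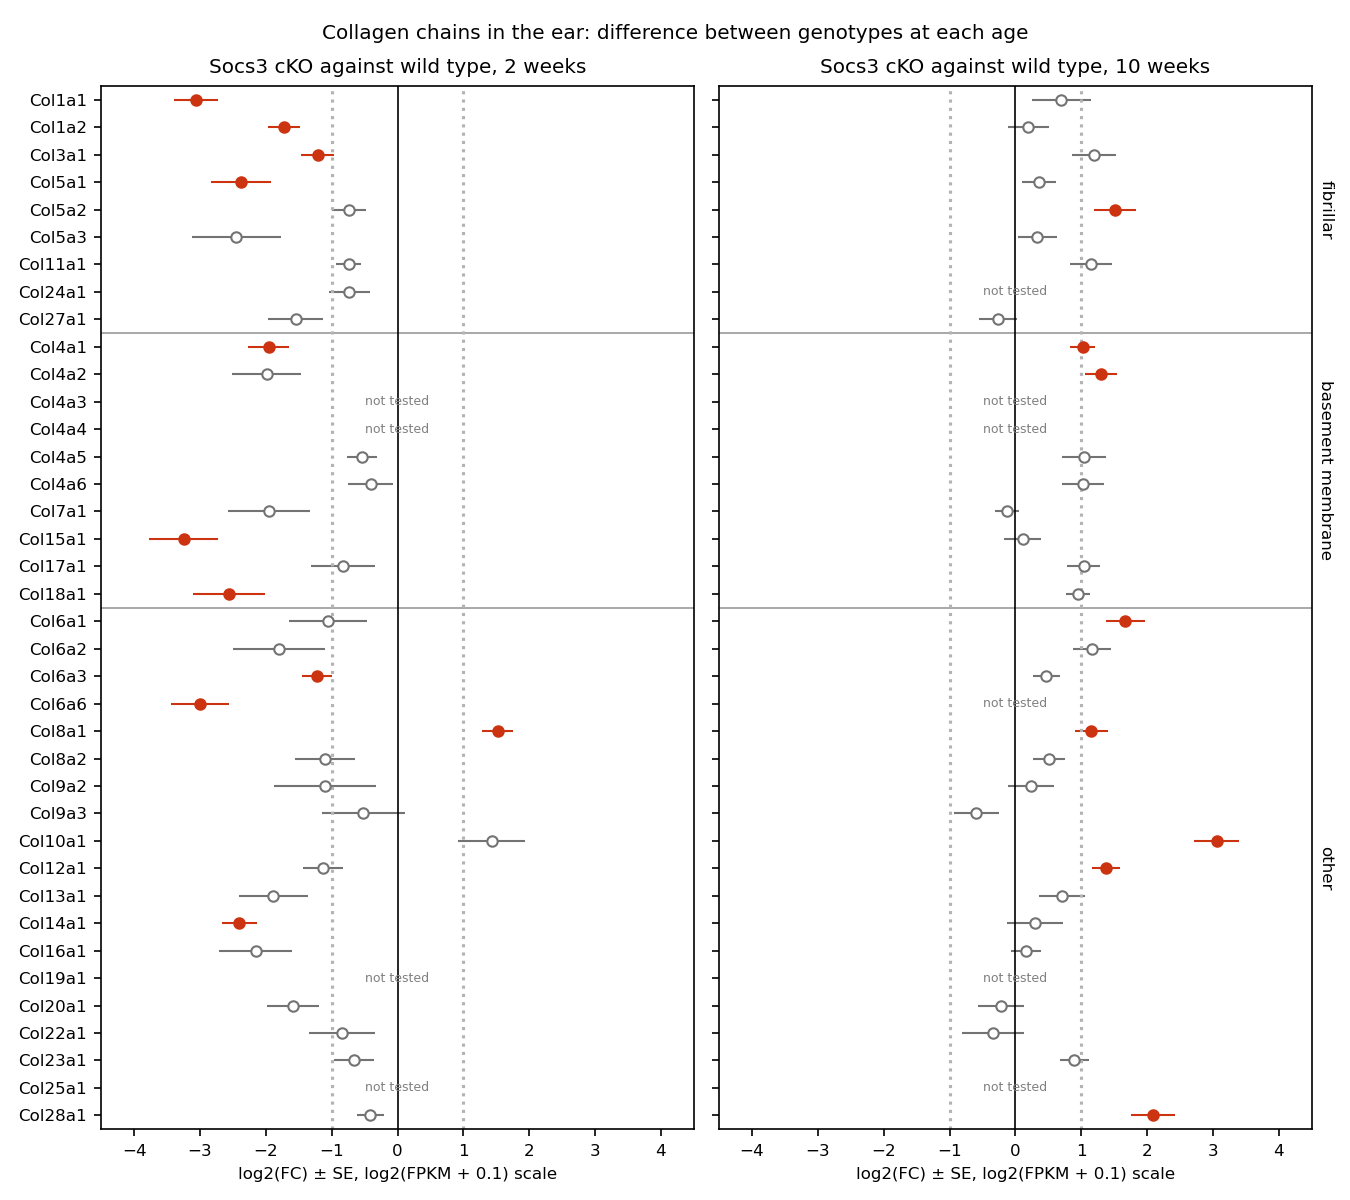
Difference between Socs3 cKO and wild type for each collagen gene at 2 weeks (left) and 10 weeks (right), as log2(FC) ± SE on the log2(FPKM + 0.1) scale, with genes ordered by class. Filled red points are DEGs (adjusted p below 0.01 and |log2(FC)| of at least 1, dotted lines) and open points are not; at 2 weeks 32 of 34 tested genes lie left of 0, and at 10 weeks 27 of 32 lie right of it.

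The difference itself was tested as a genotype by age interaction, positive where the log2(FC) was higher at 10 weeks than at 2 weeks. It was significant for 20 of the 35 genes tested, each with a positive value, while 18.5% of all 13937 genes were called in this direction and 7.05% in the other. With the trend on length and GC content removed 12 were significant (34.3%, against 20.6% of all genes in this direction). By class the 20 were 7 of 9 fibrillar, 5 of 8 basement membrane and 8 of 18 other chains. In each of the 24 alternatives run 11 of the 20 were called, while Col4a5 was called in 9 and Col6a1, Col13a1 and Col23a1 in 11 each. The values ran from 1.55 ± 0.39 SE for Col23a1 to 4.72 ± 0.59 SE for Col6a6. Col8a1, up-regulated at both ages, had an interaction of -0.37 ± 0.37 SE (adjusted p = 0.425).

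Among the fibrillar chains, Col1a1 and Col1a2 form type I collagen, the bulk of dermal fibrils. Values are listed in the order of the replicates, and gene positions are on mm9. Col1a1 (chr11:94797538-94814356) measured 3544, 3932, 4435 and 3614 FPKM in wild type at 2 weeks and 223, 648, 655 and 483 in Socs3 cKO (log2(FC) = -3.06 ± 0.34 SE, adjusted p = 0.000427). At 10 weeks Col1a1 measured 180.3, 898 and 291 in wild type and 633, 584, 568 and 561 in Socs3 cKO (log2(FC) = 0.70 ± 0.45 SE, adjusted p = 0.239). The young groups were far apart, while at 10 weeks 1 wild type mouse lay above and the others below all Socs3 cKO mice. Col1a2 (chr6:4454814-4491543) had 3538, 3846, 4163 and 3557 FPKM in young wild type and 828, 1752, 1236 and 958 in young Socs3 cKO (log2(FC) = -1.72 ± 0.24 SE, adjusted p = 0.00147). At 10 weeks Col1a2 had 865, 1962 and 1185 in wild type and 1565, 1356, 1300.0 and 1594 in Socs3 cKO (log2(FC) = 0.20 ± 0.30 SE, adjusted p = 0.627). It fell less than Col1a1 at 2 weeks, and its groups overlapped at 10 weeks. Col3a1 (chr1:45368383-45406551), the chain of the thinner type III fibrils, had 4541, 4764, 4996 and 4393 in wild type and 1446, 2772, 2639.6 and 1558 in Socs3 cKO at 2 weeks (log2(FC) = -1.21 ± 0.25 SE, adjusted p = 0.00745). At 10 weeks Col3a1 had 692, 1555 and 849 in wild type and 2390.0, 1758, 1959 and 2964 in Socs3 cKO (log2(FC) = 1.20 ± 0.34 SE, adjusted p = 0.0208), with no overlap but no call. All 3 chains had the interaction.

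Type V chains regulate the diameter of type I fibrils. Col5a1 (chr2:27741945-27895034) had 202, 212, 220.0 and 195 FPKM in wild type at 2 weeks and 13.6, 67.5, 59.7 and 45.2 in Socs3 cKO (log2(FC) = -2.38 ± 0.45 SE, adjusted p = 0.00544). At 10 weeks Col5a1 had 24, 52.3 and 31.1 in wild type and 44.9, 36.7, 41.4 and 52.7 in Socs3 cKO (log2(FC) = 0.36 ± 0.26 SE, adjusted p = 0.287). Its partner Col5a2 moved differently. Col5a2 (chr1:45431166-45560127) had 166, 176, 181 and 163 in wild type and 60.9, 116, 151 and 105 in Socs3 cKO at 2 weeks (log2(FC) = -0.74 ± 0.25 SE, adjusted p = 0.0411). At 10 weeks Col5a2 had 28.5, 49.5 and 27.5 in wild type and 93, 63.3, 93.9 and 159.9 in Socs3 cKO (log2(FC) = 1.52 ± 0.32 SE, adjusted p = 0.00595), so it was up-regulated at that age. The other fibrillar chains with the interaction were Col11a1 and Col24a1. Col11a1 had 32.1, 38.4, 38.4 and 35.9 in wild type against 16.2, 26.7, 27.2 and 18.3 in Socs3 cKO at 2 weeks (log2(FC) = -0.74, adjusted p = 0.0171) and 8.73, 13.3 and 6.57 in wild type against 21.7, 12, 24.3 and 27.5 in Socs3 cKO at 10 weeks (log2(FC) = 1.15, adjusted p = 0.0191). Col24a1, a low chain at 2.02 FPKM or less, had 2.02, 1.67, 1.23 and 1.28 in wild type against 0.61, 1.59, 0.842 and 0.698 in Socs3 cKO at 2 weeks (log2(FC) = -0.73, adjusted p = 0.0766) and 0.201, 0.398 and 0.177 in wild type against 0.691, 0.661, 0.557 and 0.828 in Socs3 cKO at 10 weeks, where it was not tested. Col5a3 (log2(FC) = -2.45, adjusted p = 0.0201) and Col27a1 (log2(FC) = -1.55, adjusted p = 0.0191) had lower values at 2 weeks that missed the threshold.

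Col4a1 and Col4a2 make the common type IV network of basement membranes. Col4a1 (chr8:11198423-11312826) had 137, 145, 147 and 141 FPKM in wild type at 2 weeks and 18.9, 54.4, 51.1 and 34.4 in Socs3 cKO (log2(FC) = -1.95 ± 0.31 SE, adjusted p = 0.00249). At 10 weeks Col4a1 had 8.27, 11.6 and 8.21 in wild type and 21.8, 16.3, 17.3 and 20.5 in Socs3 cKO (log2(FC) = 1.02 ± 0.19 SE, adjusted p = 0.0040). It was down-regulated at the first age and up-regulated at the second, with no overlap at either. The call at 2 weeks was kept in 14 of 18 alternatives, and that at 10 weeks, at the fold limit, in 6 of 17 (not with pseudocount 1, median-of-ratios scaling, quantile normalization or all 4 groups in one fit, among others). Col4a2 (chr8:11312805-11449287), the neighbour whose start lies 21 bases away, had 107, 115, 124 and 114 in wild type and 8.01, 45.5, 49.5 and 38 in Socs3 cKO at 2 weeks (log2(FC) = -1.99 ± 0.53 SE, adjusted p = 0.0176). At 10 weeks Col4a2 had 5.84, 11.5 and 7.76 in wild type and 21.4, 16.8, 19 and 23.3 in Socs3 cKO (log2(FC) = 1.30 ± 0.24 SE, adjusted p = 0.00346). The replicate that stands apart gave 8.01 FPKM of Col4a2, and the gene was a DEG at 2 weeks without it. The X-linked chain Col4a5 had 9.82, 10.4, 9.2 and 9.76 in wild type against 4.31, 9.48, 7.31 and 6.68 in Socs3 cKO at 2 weeks (log2(FC) = -0.54, adjusted p = 0.0776) and 1.4, 3.16 and 1.19 in wild type against 4.58, 3.83, 3.54 and 2.99 in Socs3 cKO at 10 weeks (log2(FC) = 1.04, adjusted p = 0.0346). Col4a5 was a DEG at neither age, and its interaction was called in 9 of the 24 alternatives run. Col4a6 was at 3.81 to 4.35 FPKM in young wild type and Col4a3 and Col4a4 stayed below 1 FPKM in all mice.

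Of the basement membrane zone chains, Col15a1 and Col18a1 carry sugar chains and hold the fragments known as restin and endostatin at their ends. Col15a1 (chr4:47221033-47326039) had 53.9, 63.7, 70.2 and 62.4 FPKM in wild type at 2 weeks and 1.8, 11.7, 9.64 and 8.49 in Socs3 cKO (log2(FC) = -3.25 ± 0.52 SE, adjusted p = 0.00262), the largest fall among the 34 genes. At 10 weeks Col15a1 had 4.34, 9.93 and 7.38 in wild type and 8.66, 6.1, 6.64 and 8.46 in Socs3 cKO (log2(FC) = 0.11 ± 0.28 SE, adjusted p = 0.776), and the groups overlapped. Col18a1 (chr10:76514923-76629293) had 56.1, 60.9, 65.8 and 60.8 in wild type and 2.67, 16.5, 16.3 and 15.1 in Socs3 cKO at 2 weeks (log2(FC) = -2.56 ± 0.54 SE, adjusted p = 0.00801). At 10 weeks Col18a1 had 7.33, 9.91 and 7.09 in wild type and 14.2, 14.1, 16.4 and 18.1 in Socs3 cKO (log2(FC) = 0.95 ± 0.19 SE, adjusted p = 0.00479), just under the fold limit. The chains tied to keratinocytes gave no DEG in the main fit of either age. Col7a1 was called lower at 2 weeks in 3 of 18 alternatives (quantile normalization, without Socs3 cKO replicate 1, and all 4 groups in one fit). Col17a1 was called higher at 10 weeks in 2 of 17 (a replicate block, and without wild type replicate 2). Col17a1 (chr19:47720834-47766584), a hemidesmosome protein, had the highest mean of the class, with 210.4, 217, 217 and 214 in wild type and 38.1, 199, 150.3 and 188 in Socs3 cKO at 2 weeks (log2(FC) = -0.83 ± 0.48 SE, adjusted p = 0.174). At 10 weeks Col17a1 had 81.9, 149 and 72.2 in wild type and 182, 229, 213 and 168 in Socs3 cKO (log2(FC) = 1.03 ± 0.26 SE, adjusted p = 0.0125). Col7a1, the anchoring fibril chain, had 58.8 to 66 FPKM in wild type against 3.55 to 33.4 in Socs3 cKO at 2 weeks (log2(FC) = -1.95, adjusted p = 0.0321) and 12.4 to 18.2 in wild type against 11.8 to 14.6 in Socs3 cKO at 10 weeks (log2(FC) = -0.13, adjusted p = 0.608).

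Type VI collagen forms beaded filaments around cells and next to basement membranes. Col6a1 (chr10:76171537-76188913) had 515, 561, 627 and 552 FPKM in wild type at 2 weeks and 64.6, 417, 484 and 409 in Socs3 cKO (log2(FC) = -1.06 ± 0.59 SE, adjusted p = 0.16). At 10 weeks Col6a1 had 81.4, 171 and 99.8 in wild type and 330.4, 275, 328 and 535 in Socs3 cKO (log2(FC) = 1.67 ± 0.30 SE, adjusted p = 0.00318), an up-regulation with no overlap. At 2 weeks the replicate that stands apart gave 64.6 FPKM and the other Socs3 cKO mice 409 to 484. Col6a2 (chr10:76058507-76086375) had 497, 548, 627 and 544 in wild type and 28.9, 296, 291 and 253 in Socs3 cKO at 2 weeks (log2(FC) = -1.80 ± 0.70 SE, adjusted p = 0.0605). At 10 weeks Col6a2 had 70.3, 158 and 108 in wild type and 223, 179, 249 and 321 in Socs3 cKO (log2(FC) = 1.16 ± 0.29 SE, adjusted p = 0.0132), so neither age gave a call. Col6a3 (chr1:92663435-92740529), the long chain of the molecule, had 208, 212, 197 and 180.1 in wild type and 55.5, 123, 83 and 94.5 in Socs3 cKO at 2 weeks (log2(FC) = -1.22 ± 0.23 SE, adjusted p = 0.00511). At 10 weeks Col6a3 had 39.9, 65.4 and 44.2 in wild type and 74, 56.4, 71.9 and 69 in Socs3 cKO (log2(FC) = 0.47 ± 0.20 SE, adjusted p = 0.0935). Col6a6 (chr9:105591747-105730415), a chain that can take the place of Col6a3, had 10.5, 8.09, 6.86 and 6.51 in wild type and 0.38, 2.28, 0.924 and 0.726 in Socs3 cKO at 2 weeks (log2(FC) = -3.0 ± 0.44 SE, adjusted p = 0.00179). At 10 weeks Col6a6 had 0.159, 0.298 and 0.241 in wild type and 1.53, 1.05, 0.91 and 0.596 in Socs3 cKO, too low to be tested in the fit of this age. The wild type values at 10 weeks all lay below the Socs3 cKO values, and the fit of all 4 groups called Col6a6 higher.

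Col8a1 and Col10a1 belong to the short-chain collagens of hexagonal networks, known from vessel walls and from hypertrophic cartilage. Col8a1 (chr16:57624371-57754850) had 56.9, 80.5, 94.8 and 70.6 FPKM in wild type at 2 weeks and 171, 323, 211 and 179 in Socs3 cKO (log2(FC) = 1.52 ± 0.24 SE, adjusted p = 0.00249). At 10 weeks Col8a1 had 72.5, 92.4 and 56.2 in wild type and 208, 115, 196 and 142 in Socs3 cKO (log2(FC) = 1.15 ± 0.25 SE, adjusted p = 0.00749). It was up-regulated at both ages, with no overlap at either. The call was kept in 17 of 18 alternatives at 2 weeks and in 6 of 17 at 10 weeks, where median-of-ratios scaling, quantile normalization and a constant prior variance ended it, among others. Col10a1 (chr10:34109787-34116891) had 0.73, 1.17, 1.5 and 1.32 in wild type and 1.01, 3.74, 4.86 and 5.89 in Socs3 cKO at 2 weeks (log2(FC) = 1.43 ± 0.51 SE, adjusted p = 0.0471). At 10 weeks Col10a1 had 1.47, 1.5 and 0.944 in wild type and 17.4, 6.07, 12.2 and 13 in Socs3 cKO (log2(FC) = 3.06 ± 0.34 SE, adjusted p = 0.00038), the largest rise among the 32 genes. At 2 weeks only the replicate that stands apart overlapped the wild type, and without it, or with quantile normalization, Col10a1 was called at that age too. Col8a2, the partner of Col8a1, had 36.2 to 43.8 in wild type against 6.53 to 37.3 FPKM in Socs3 cKO at 2 weeks (log2(FC) = -1.10, adjusted p = 0.074).

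**Figure D3:**
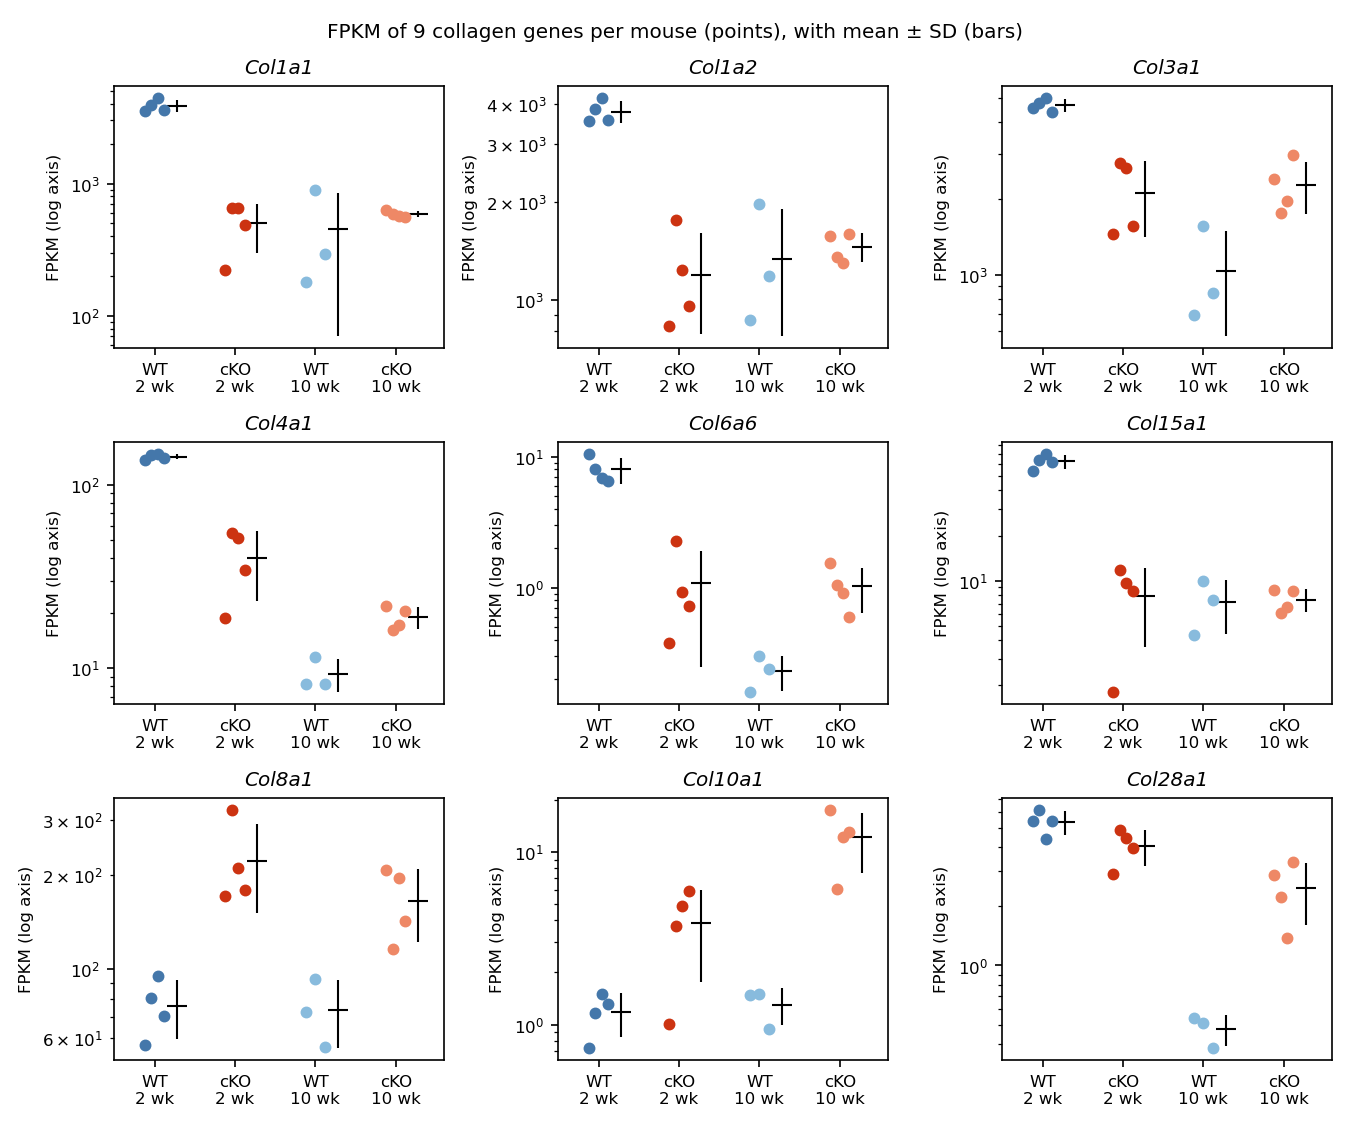
FPKM of 9 collagen genes in each mouse on a log axis, by genotype (WT, wild type; cKO, Socs3 cKO) and age in weeks, with the group mean ± SD beside the points. Col1a1, Col1a2, Col3a1, Col4a1, Col6a6 and Col15a1 are highest in wild type at 2 weeks, Col8a1 is higher in Socs3 cKO at both ages, Col10a1 is highest in Socs3 cKO at 10 weeks and Col28a1 is lowest in wild type at 10 weeks.

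FACIT collagens bind to the surface of fibrils. Col14a1 (chr15:55139305-55352358) had 100.1, 102, 88.1 and 85.5 FPKM in wild type at 2 weeks and 10.2, 25.5, 20.4 and 18.1 in Socs3 cKO (log2(FC) = -2.40 ± 0.26 SE, adjusted p = 0.000403). At 10 weeks Col14a1 had 11.6, 21.8 and 15.6 in wild type and 15.4, 9.4, 28.5 and 34.8 in Socs3 cKO (log2(FC) = 0.30 ± 0.42 SE, adjusted p = 0.592). Its close relative Col12a1 was called at the other age. Col12a1 (chr9:79446798-79566638) had 25.1, 25.3, 22.9 and 23 in wild type and 6.06, 17.8, 9.58 and 13.8 in Socs3 cKO at 2 weeks (log2(FC) = -1.13 ± 0.30 SE, adjusted p = 0.0181). At 10 weeks Col12a1 had 4.88, 4.6 and 3.88 in wild type and 10.1, 9.38, 13.1 and 15 in Socs3 cKO (log2(FC) = 1.38 ± 0.21 SE, adjusted p = 0.00171). Both had the interaction. Col16a1 had 152 to 182 in wild type against 9.76 to 74.1 in Socs3 cKO at 2 weeks (log2(FC) = -2.16, adjusted p = 0.0158) and Col20a1 had 2.98 to 3.7 in wild type against 0.404 to 2.02 in Socs3 cKO (log2(FC) = -1.59, adjusted p = 0.0138). Col22a1, Col9a2 and Col9a3 overlapped between the genotypes at both ages.

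Col28a1 (chr6:7947808-8142617), a chain with von Willebrand type A domains that is found around nerves, had 5.43, 6.14, 4.36 and 5.42 FPKM in wild type at 2 weeks and 2.9, 4.85, 4.41 and 3.94 in Socs3 cKO (log2(FC) = -0.41 ± 0.20 SE, adjusted p = 0.115). At 10 weeks Col28a1 had 0.543, 0.51 and 0.381 in wild type and 2.88, 2.23, 1.38 and 3.36 in Socs3 cKO (log2(FC) = 2.09 ± 0.34 SE, adjusted p = 0.00194). The groups overlapped at 2 weeks and were well apart at 10 weeks. The transmembrane chains Col13a1 and Col23a1 were not DEGs at either age but had the interaction, which was called for each in 11 of 24 alternatives and was lost with median-of-ratios scaling and quantile normalization. Col13a1 had 7.19, 7.99, 8.64 and 7.43 in wild type against 0.523, 3.03, 3.47 and 2.9 in Socs3 cKO at 2 weeks (log2(FC) = -1.88, adjusted p = 0.0198) and 0.788, 1.94 and 1.78 in wild type against 2.07, 2.63, 1.75 and 3.26 in Socs3 cKO at 10 weeks (log2(FC) = 0.71, adjusted p = 0.133). Col23a1 had 7.89, 7.83, 7.31 and 7.18 in wild type against 2.41, 6.55, 4.86 and 6.54 in Socs3 cKO at 2 weeks (log2(FC) = -0.66, adjusted p = 0.10) and 3.13, 4.17 and 3.14 in wild type against 5.78, 5.36, 7.63 and 7.52 in Socs3 cKO at 10 weeks (log2(FC) = 0.89, adjusted p = 0.0118).

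These counts depended on single mice. Without Socs3 cKO replicate 1, 19 genes were DEGs at 2 weeks (17 lower and 2 higher), all 11 above among them. They were 7 without wild type replicate 1, 5 without replicate 2, 5 without replicate 3 and 4 without replicate 4. Without Socs3 cKO replicate 2 they were 13 (12 lower and 1 higher), and without Socs3 cKO replicate 3 or replicate 4 they were 7. Col1a1, Col6a6 and Col14a1 were called in each of the 18 alternatives run, Col3a1 in 8, Col6a3 in 9 and Col5a1 and Col18a1 in 10. Over all genes the share lower was 2.70 to 2.87% without a wild type mouse. It was 13.0% without Socs3 cKO replicate 1, 14.0% without replicate 2, 3.6% without replicate 3 and 4.04% without replicate 4. At 10 weeks 17 of 31 were called without wild type replicate 2, all higher, when 18.0% of all genes were higher. The calls were 3 of 32 without wild type replicate 1 (6.27% of all genes), 2 of 31 without replicate 3 (5.01%) and 4 of 31 without Socs3 cKO replicate 1 (7.17%). The shares without wild type replicate 1 or 3 were near the background. Without Socs3 cKO replicate 2 there were 9 of 32 (7.35% of all genes), without replicate 3 there were 6 of 32 (7.72%) and without replicate 4 also 6 of 32 (13.7%). Col10a1 was called in each of the 17 alternatives run for that age, Col12a1 and Col28a1 in 15, Col6a1 in 13, Col4a2 in 10 and Col5a2 in 9. With all 4 groups in one fit, 9 of 35 were called at 10 weeks: Col3a1, Col6a6, Col11a1 and Col25a1 were added, and Col4a1, Col4a2 and Col6a1 were lost.

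With age, collagen genes fell in the wild type. From 2 to 10 weeks 25 of the 35 genes tested were down-regulated and none was up-regulated in limma. Of all genes 19.4% were lower and 6.18% higher. With an adjusted p below 0.05 alone, 31 of the 35 were lower and 0 higher, against 7077 of all 13937 genes called in either direction. The 25 were 8 of 9 fibrillar, 6 of 8 basement membrane and 11 of 18 other chains. Class medians were -2.27, -2.66 and -2.02 beside -0.44 for all genes tested. Col6a6 (-4.60 ± 0.43 SE), Col4a1 (-3.93 ± 0.29 SE) and Col4a2 (-3.82 ± 0.47 SE) fell most on the log2 scale. Col8a1 (-0.04 ± 0.27 SE), Col10a1 (0.15 ± 0.49 SE), Col9a3 (0.21 ± 0.59 SE) and Col27a1 (-0.07 ± 0.41 SE) gave values near 0 and no call. The young wild type mice that set this fall are also the controls of the comparison at 2 weeks, and the old ones those at 10 weeks, so the comparisons are not independent.

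In Socs3 cKO no collagen gene passed the threshold between 2 and 10 weeks in limma. With an adjusted p below 0.05 alone, 2 of the 35 were called, against 1406 of all 13937 genes. Over all genes 2.01% were higher and 1.53% lower. The class medians were 0.13 for fibrillar, -0.06 for basement membrane and 0.14 for other chains, with 0.11 for all genes. The smallest adjusted p values belonged to Col10a1 (log2(FC) = 1.77 ± 0.46 SE, adjusted p = 0.0244) and Col4a1 (log2(FC) = -0.96 ± 0.26 SE, adjusted p = 0.0333). The count was 1 with median-of-ratios scaling, 2 with quantile normalization, 3 with the trend on length and GC content removed and 4 without Socs3 cKO replicate 1 at 2 weeks, each lower. Of all genes, 223, 238, 241 and 217 were lower in these fits, in that order.

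Collagen chains can be compared within a library, where scaling between libraries cancels. Of the 6 ratios, 5 set chains of the same collagen type against each other, and Col3a1/Col1a1 sets type III against type I. The ratio Col1a1/Col1a2 was 1.0 to 1.07 in wild type at 2 weeks and 0.269 to 0.53 in Socs3 cKO, and at 10 weeks it was 0.208 to 0.458 in wild type and 0.352 to 0.437 in Socs3 cKO. The young wild type thus stood alone. Col3a1/Col1a1 was 1.13 to 1.28 in young wild type and 3.23 to 6.5 in young Socs3 cKO, against 1.73 to 3.84 and 3.01 to 5.29 at 10 weeks. For Col5a1/Col5a2 the genotypes did not overlap at either age, with young wild type at 1.20 to 1.22 against 0.223 to 0.582 in young Socs3 cKO, and old wild type at 0.844 to 1.13 against 0.33 to 0.58 in old Socs3 cKO. Col6a1/Col6a2 did not overlap either, with young wild type at 0.999 to 1.04 against 1.41 to 2.24, and old wild type at 0.922 to 1.16 against 1.32 to 1.67. Col4a1/Col4a2 overlapped at both ages, and Col6a3/Col6a1 overlapped at 2 weeks but was lower in Socs3 cKO at 10 weeks (0.129 to 0.224 against 0.383 to 0.49).

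For the 4 ratios without overlap at 2 weeks the exact permutation test over mice gave p = 0.0286, the smallest that 4 against 4 mice allow. Adjusted over the 12 ratio tests these became 0.0857. For the 3 ratios without overlap at 10 weeks the exact permutation p was 0.0571, the smallest that 3 against 4 mice allow, and 0.098 after adjustment, so none of the 12 passed 0.05. The transcripts of a pair can differ in GC content, which was 58.9% for Col1a1 and 55.7% for Col1a2, 58% for Col5a1 and 49.6% for Col5a2, but 56.7% for Col6a1 and 56.2% for Col6a2. Its part in the ratios was not tested.

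**Figure D4:**
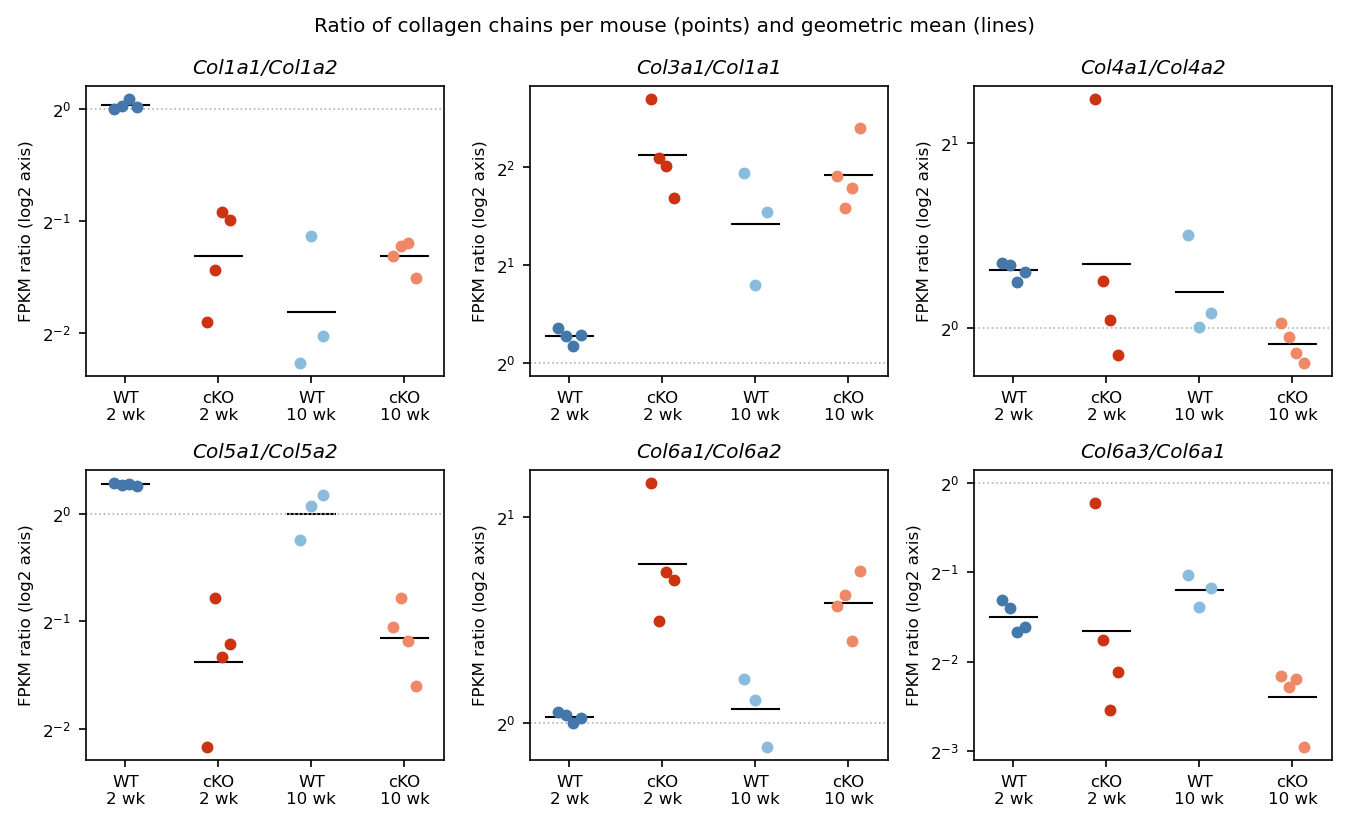
Ratio of the FPKM of paired collagen chains in each mouse on a log2 axis, by genotype (WT, wild type; cKO, Socs3 cKO) and age in weeks, with the geometric mean as a line. The 4 wild type mice at 2 weeks cluster tightly, and for Col5a1/Col5a2 and Col6a1/Col6a2 the genotypes do not overlap at either age.

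GC content moved with the genotype difference over all genes as well. Spearman's rho between the GC content of the longest coding transcript and the log2(FC) was -0.514 across the 34 collagen genes tested at 2 weeks and -0.528 across 13037 genes, which share the same libraries. At 10 weeks it was -0.526 across 32 collagen genes and -0.268 across 12640 genes. With transcript length, rho at 2 weeks was -0.163 across the collagen genes and -0.258 across all genes. At 10 weeks rho with length was -0.061 across the collagen genes and 0.451 across all genes. For age in wild type it was -0.178 across 35 collagen genes and -0.468 across 13368 genes. The part of length in the collagen values was not tested. The median GC content was 56.3% in the 34 collagen genes and 50.7% in all. With each library's trend on length and GC content removed, 7 collagen genes were DEGs at 2 weeks (Col1a1, Col5a1, Col6a6, Col14a1, Col15a1 and Col18a1 lower, Col8a1 higher) and 4 at 10 weeks (Col4a2, Col6a1, Col10a1 and Col28a1). Of all genes 8.28% were then lower at 2 weeks, against 17.6% of the collagen genes, and 11.1% were higher at 10 weeks, against 12.5% of the collagen genes, which is near the background.

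Genes for the machinery that builds collagen were examined next. Of 17 processing enzymes and chaperones tested, 4 were down-regulated at 2 weeks (median log2(FC) -1.07), when 7.19% of all genes were. At 10 weeks 2 of 16 were up-regulated (median 0.48), the same share as the 12.5% of all genes. Leprel2, a prolyl 3-hydroxylase, went from 43.8 ± 2.11 FPKM (SD, n = 4) in wild type to 11.5 ± 5.71 (SD, n = 4) in Socs3 cKO at 2 weeks (log2(FC) = -2.07, adjusted p = 0.00335). Leprel1, of the same family, went from 1.61 ± 1.4 (SD, n = 3) to 7.62 ± 2.45 (SD, n = 4) at 10 weeks (log2(FC) = 2.40, adjusted p = 0.00512). Ppib, a prolyl isomerase and the highest of the list, did not pass the test at 2 weeks (log2(FC) = 0.32, adjusted p = 0.243) or at 10 weeks (log2(FC) = -0.00, adjusted p = 0.999). Mia3 was listed at 0 in every library.

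Of the procollagen proteases and enhancers, 1 of 7 tested was lower at 2 weeks, namely Bmp1, the C-propeptide protease (log2(FC) = -2.04, adjusted p = 0.00331). The one higher at 10 weeks was Adamts2, the N-propeptide protease (log2(FC) = 1.04, adjusted p = 0.0039), and Pcolce, an enhancer with the highest level, gave log2(FC) = -0.96, adjusted p = 0.0026 at 2 weeks. Of the 5 cross-linking enzymes, Loxl1 was lower at 2 weeks (log2(FC) = -2.26, adjusted p = 0.00665) and Lox higher at 10 weeks (log2(FC) = 1.57, adjusted p = 0.00519). Among 10 collagen receptors 8 were tested. Itga11, a fibroblast collagen integrin, was lower at 2 weeks (log2(FC) = -2.68, adjusted p = 0.0030) while Itga2, the epithelial one, was higher then (log2(FC) = 1.62, adjusted p = 0.00692). At 10 weeks 3 receptors were higher, Itga2 with the largest change (log2(FC) = 2.64, adjusted p = 0.00168) and Itgb1 with the highest level (log2(FC) = 1.33, adjusted p = 0.0026). Of all genes, 7.19% were lower and 7.24% higher at 2 weeks, and 12.5% were higher at 10 weeks. A single call in a list this short cannot be told from these shares.

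Small leucine-rich proteoglycans and other fibril partners bind to collagen fibrils. At 2 weeks 2 of 13 were higher and 1 was lower, with a median log2(FC) of 0.40, and at 10 weeks 3 were higher (median 0.95). Of all genes, 7.24% were higher and 7.19% lower at 2 weeks, and 12.5% were higher at 10 weeks. Omd, osteomodulin, rose at 2 weeks from 12.4 ± 2.07 FPKM (SD, n = 4) to 65.4 ± 22 (SD, n = 4), with log2(FC) = 2.35, adjusted p = 0.000349. Kera, keratocan, rose at 10 weeks (log2(FC) = 1.80, adjusted p = 0.00432), and Sparc, the collagen-binding protein with the highest level, gave log2(FC) = -0.18, adjusted p = 0.612 at 2 weeks and log2(FC) = 1.32, adjusted p = 0.0101 at 10 weeks.

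Markers of the cell types in the ear were examined too. The counts in these lists stand beside 7.24% of all genes higher and 7.19% lower at 2 weeks. At 10 weeks 12.5% of all genes were higher and 2.43% lower. A single call in lists this short cannot be told from these shares. The fibroblast list held 8 of 8 markers above 0. At 2 weeks 1 of them (Dcn, log2(FC) = 1.24, adjusted p = 0.00982) was higher and 0 were lower, with a median log2(FC) of -0.02, and their summed level was 2107 to 2387 FPKM in wild type against 2697 to 5670.2 in Socs3 cKO. Dcn itself had a mean of 838 FPKM in wild type and 2107 in Socs3 cKO. Among the markers not called, Vim (0.64), Lum (0.40) and Pdgfra (0.19) had higher values. Pdgfrb (-1.02), Fbn1 (-0.44), Thy1 (-0.42) and Dpt (-0.24) had lower ones. At 10 weeks 1 (Pdgfra, log2(FC) = 1.34, adjusted p = 0.00112) was higher, with a median of 0.81, and sums of 2729 to 3513 and 4319 to 8644 FPKM. The collagen genes tested had a median of -1.21 at 2 weeks. Of the fibroblast list, Dcn, the highest of the list, Dpt and Lum are also on the proteoglycan list.

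Keratinocyte markers gave 1 higher of 6 at 2 weeks (Krt14, log2(FC) = 1.02, adjusted p = 0.0069) and 1 at 10 weeks (Cdh1, log2(FC) = 2.16, adjusted p = 0.00887). At 2 weeks all but Krt14 had lower values: Cdh1 (-1.26), Krt1 (-0.99), Krt10 (-0.54), Krt5 (-0.39) and Trp63 (-0.03). The median log2(FC) of this list was -0.47 at 2 weeks and 0.70 at 10 weeks, when only Krt10 had a lower value (-0.11). Among the marker lists the largest median was that of hair shaft and matrix genes, of which all 6 were lower at 2 weeks (median log2(FC) -7.23). Their summed level was 361 to 608 FPKM in young wild type against 4.01 to 9.22 in young Socs3 cKO. The older groups had 6.44 to 7.56 (wild type) and 2.66 to 10.7 (Socs3 cKO), and 1 of 6 could be tested. Skeletal muscle markers were higher at 2 weeks for 3 of 5, with sums of 444 to 669.8 and 1054 to 1595 FPKM, and 0 of 5 were called at 10 weeks (395 to 728 and 230.1 to 431). Of 9 cartilage markers tested, which include the 3 collagens set aside, 3 were lower at 2 weeks (325 to 501 against 128 to 309.9 FPKM) and 1 was higher and 1 lower at 10 weeks (145 to 199.8 against 141 to 298).

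At 10 weeks 3 of 5 endothelial markers were higher (Pecam1, Cdh5 and Kdr, named with the rest of the list after its values were seen), while Tek (log2(FC) = 0.78, adjusted p = 0.0688) was no DEG and Cldn5, a tight junction gene, had a lower value short of the fold limit (log2(FC) = -0.91, adjusted p = 0.00973). The endothelial sums were 35.4 to 43.1 FPKM in wild type against 41.4 to 55 in Socs3 cKO. Of 4 leukocyte markers 3 were higher, with sums of 27.9 to 44.6 and 73.2 to 94.8 FPKM. At 2 weeks 0 of either list were called in limma, with sums of 67.3 to 74.9 and 46.8 to 62.5 for endothelium and 35 to 38.7 and 41.4 to 51.8 for leukocytes. Pericyte and smooth muscle markers gave 0 of 5 calls at 2 weeks and 1 higher at 10 weeks (Rgs5, log2(FC) = 3.07, adjusted p = 0.00038), adipocyte markers 0 and 1 of 5, and Schwann cell markers 0 of 4 at both ages. Each list had all its markers above 0 in at least 1 library. Summed levels of Schwann cell markers were 304 to 334 FPKM in young wild type against 103 to 247 in young Socs3 cKO, and 77.7 to 153 against 63.1 to 154 in the older mice. Those of adipocyte markers were 216 to 252 against 362 to 694, then 301 to 417 against 374 to 717. Pericyte and smooth muscle sums were 134 to 148 against 123 to 173, then 58.1 to 86.7 against 64.4 to 103. Keratinocyte sums were 7686 to 8425 against 5757 to 11608, then 4755 to 9515 against 7517 to 11536. The part of these shifts in the collagen values was not tested.

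The 3 cartilage collagens that were set aside are given for comparison. Col2a1 had 119, 141, 212 and 179 FPKM in wild type and 9.47, 31.1, 52.4 and 13.4 in Socs3 cKO at 2 weeks (log2(FC) = -2.89 ± 0.50 SE, adjusted p = 0.00367), a change of the same direction as in the 10 genes lower at that age, while Col9a1 (log2(FC) = -0.16, adjusted p = 0.771) and Col11a2 (log2(FC) = -1.94, adjusted p = 0.0825) were not DEGs.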

How the data were processed

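Total RNA from ears was made into libraries with a kit that does not mark strand (TruSeq RNA v2), sequenced by the authors as single reads of 50 bases, aligned to mm9 with TopHat2 (2.1.0), and summed per gene with Cufflinks, per the submitters' processing notes and the study's methods. The authors deposited FPKM per gene for each library (fragments scaled by gene length and by mapped reads), and no counts were used here. The study used a count model; FPKM are not counts, so limma (3.58.1, R 4.3.3, trend) was run on log2(FPKM + 0.1) for genes that reached an FPKM of 1 in 3 or more libraries of the fit, with Benjamini-Hochberg adjustment over all genes tested. This scale understates changes of low genes. Genotypes were compared within each age, and age and the interaction in one fit of all 4 groups. DEGs had adjusted p below 0.01 and |log2(FC)| of at least 1; interaction calls used adjusted p below 0.01 alone. Reads per library were estimated from the value of 1 read. The named genes were those called in a genotype comparison or by the interaction and the highest 2 of each class; from other lists, the largest change and the highest level. Members and lists were chosen with earlier results of these data known. Mice are the replicates, so limma p-values set a difference against the spread between mice of a group, moderated over all genes. Exact permutation tests were two-sided. Exons of Col1a1, Col5a1 and Col9a3 overlap other genes by 1.66%, 2.50% and 6.07% of their bases, where reads could be shared. Col6a4, Col6a5, Col21a1 and Col26a1 were not analysed here. Gene positions are mm9 and promoter windows GRCm38.p6. The alternatives were other pseudocounts, filters, scalings, priors, a replicate block, all 4 groups together and each mouse left out, and, chosen after seeing the data, removal of each library's trend on length and GC content. The fit was tested on simulated data.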

Additional observations from a re-analysis of the deposited data

Results flagged for a closer look

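Socs3 cKO replicate 1 at 2 weeks lay far below the other 3 mice of its group for 6 genes by a Dixon test. The test set the gap above the lowest value against the range, on the log scale of the limma fits. The values that follow are FPKM and not the log values tested. Col4a2 measured 8.01 FPKM there against 38.0 to 49.5 in the others, Col6a1 64.6 against 409 to 484, and Col6a2 28.9 against 253 to 296. Col13a1 measured 0.523 against 2.90 to 3.47, Col17a1 38.1 against 150.3 to 199, and Col18a1 2.67 against 15.1 to 16.5. The 6 values came from 72 groups examined, of which chance alone picks about 1 in 20, and all 6 belonged to the same mouse.

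For 20 collagen genes the difference between Socs3 cKO and wild type was not the same at 2 and 10 weeks by the interaction test in limma (adjusted p below 0.01), each with a higher log2(FC) at 10 weeks. Among fibrillar chains the interaction on the log2 scale was 3.76 for Col1a1, 1.92 for Col1a2, 2.41 for Col3a1, 2.74 for Col5a1, 2.25 for Col5a2, 1.90 for Col11a1 and 1.90 for Col24a1. Among basement membrane chains it was 2.98 for Col4a1, 3.29 for Col4a2, 1.58 for Col4a5, 3.36 for Col15a1 and 3.51 for Col18a1. Among the other chains it was 2.73 for Col6a1, 1.69 for Col6a3, 4.72 for Col6a6, 2.51 for Col12a1, 2.60 for Col13a1, 2.70 for Col14a1, 1.55 for Col23a1 and 2.50 for Col28a1.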

How the results depend on the processing

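The number of collagen DEGs at 2 weeks (11) was 6 without the expression filter, 19 with quantile normalization or with all 4 groups in one fit, 7 with the length and GC trend removed and 22 with adjusted p below 0.05 alone, and it ran from 4 to 19 when 1 mouse was left out. The share of collagen genes lower at 2 weeks was 13.2% without the filter, against 3.24% of all genes. It was 50.0% against 9.61% with quantile normalization, 51.4% against 15.3% with all 4 groups in one fit and 17.6% against 8.28% with the trend removed. At 10 weeks (8) the number was 3 without the filter, 5 with median-of-ratios scaling or quantile normalization, 4 with the length and GC trend removed and 16 with adjusted p below 0.05 alone, and from 2 to 17 with 1 mouse left out. The share of collagen genes higher at 10 weeks was 7.89% without the filter, against 2.93% of all genes. It was 16.1% against 8.15% with median-of-ratios scaling, 15.6% against 7.04% with quantile normalization and 12.5% against 11.1% with the trend removed. The 20 interactions became 12 with the length and GC trend removed and were 15 to 25 with 1 mouse left out. Over all genes 20.6% and 10.2 to 26.8% were then called in the positive direction. For age in wild type (25) the range with 1 mouse left out was 17 to 30. At the 17, without wild type replicate 1 at 10 weeks, 1781 of 13850 genes were lower. At the 30, without Socs3 cKO replicate 1 at 2 weeks, 3588 of 13909 were lower. For age in Socs3 cKO (0) the range was 0 to 4. The count was 1 for median-of-ratios scaling, 2 for quantile normalization and 3 with the length and GC trend removed. Of all genes 223, 238 and 241 were lower there. The cause of these shifts was not tested. Over all genes at 10 weeks, 1638 higher and 319 lower DEGs became 1066 and 643 with median-of-ratios scaling and 923 and 776 with quantile normalization. The log2 difference in Col4a1/Col4a2 at 2 weeks ran from -0.26 to 0.20 and that in Col6a3/Col6a1 from -0.64 to 0.13 with 1 mouse left out.

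Mice with the same replicate number did not deviate together (mean correlation 0.02 at 2 weeks and -0.11 at 10 weeks). The labels do not say whether these numbers pair mice, and correlations over so few mice cannot exclude it. A replicate block gave 7 DEGs at 2 weeks, 5 at 10 weeks, 20 interactions, 25 genes with age in wild type and 0 in Socs3 cKO. With it 17.6% of the collagen genes were lower at 2 weeks, against 2.6% of all genes. At 10 weeks 15.6% were higher, against 12.3% of all genes, which is near the background. Positive interactions were called for 57.1%, against 17.3% of all genes. With age, 2571 of 13937 genes were lower in wild type, and 216 were higher and 143 lower in Socs3 cKO. FPKM carry no counts, so genes near 0 have an unknown counting error.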
